A study of Arabidopsis thaliana with 9 samples.

Results

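The comparison described here is the effect of the BBX22-GFPox construct in seedlings that carry the cop1-4 mutation. It rests on 6 of the 9 arrays of the study, chosen by their titles: 3 arrays of cop1-4 BBX22-GFPox seedlings and 3 of cop1-4 seedlings, each numbered as biological replicates 1 to 3. The other 3 arrays are from wild type, whose values are given beside the others as a further level. All seedlings were of the Col-0 ecotype and were grown whole in darkness for 4 days on a medium with sucrose, and the cop1-4 allele is shared by both cop1-4 genotypes. BBX22-GFPox is read here as overexpression of a fusion of BBX22 to green fluorescent protein. No source used here gives the promoter of the construct, the number of independent lines, or whether replicates came from separate sowings, so p-values measure only the spread between these samples. The BBX22 and COP1 transcripts were not analysed here, and the genotypes stand as labelled.

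COP1 is an E3 ubiquitin ligase that, in darkness, marks transcription factors of the light response for degradation. Mutants such as cop1-4 therefore grow in the dark with short hypocotyls and opened cotyledons, as a light-grown seedling would. BBX22 is a B-box zinc finger protein that promotes light responses and is itself a target of COP1 in the dark, so the pairing of a weakened COP1 with extra BBX22 asks what the factor does to transcripts when its degradation is impaired.

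Replicate 1 stood apart from replicates 2 and 3 in both genotypes, so most results below are given by replicate or within replicates 2 and 3 alone. Where only a change within replicates 2 and 3 is given, it does not show recurrence in replicate 1. The values are deposited probe set signals on a linear scale, and differences are on the scale log2(signal + 24.5). Over the 15922 probe sets tested, replicate 1 differed at least 2-fold from the mean of replicates 2 and 3 at 24.3% of probe sets in cop1-4 BBX22-GFPox, at 29.7% in cop1-4 and at 8.7% in wild type. Replicates 2 and 3 differed from each other by that much at 0.26%, 0.55% and 0.81% of probe sets in the same order of genotypes. The labels name no batch, and what set replicate 1 apart was not tested. Same-numbered arrays were set against each other as pairs 1, 2 and 3, with every difference taken as cop1-4 BBX22-GFPox minus cop1-4. In these whole seedlings, fewer cells of a type and less RNA per cell cannot be told apart.

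The construct went with a change of at least 2-fold in the same direction in all 3 pairs at 178 probe sets. Of these, 141 were higher in cop1-4 BBX22-GFPox, which is 0.886% of the probe sets tested, and 37 were lower, which is 0.232%. The leading genes were AT5G45500 and ZW9, at near-background signal in cop1-4 and strong in cop1-4 BBX22-GFPox. Taken singly, pair 1 held 555 probe sets raised and 267 lowered at least 2-fold, pair 2 held 844 and 477, and pair 3 held 678 and 602. Across probe sets, which are not independent replicates, the differences of pairs 2 and 3 correlated at r = 0.779, those of pairs 1 and 2 at 0.324 and those of pairs 1 and 3 at 0.217. The probe set nearest to the 2-fold limit on the raised side had a smallest pair difference of 1.0 and the next one outside 0.9993, and on the lowered side the values were -1.0243 inside and -0.9857 outside.

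A linear model over all 9 arrays (limma, two-sided, Benjamini-Hochberg adjusted p under 0.05) called 48 probe sets, 45 higher and 3 lower in cop1-4 BBX22-GFPox, or 0.301% of those tested (0.283% higher and 0.0188% lower), and 1194 had an unadjusted p under that level. All 48 were among the 178 that recurred. With the replicate number as a block 206 were called, 165 higher and 41 lower, or 1.29%. All 3 cop1-4 BBX22-GFPox arrays lay above all 3 cop1-4 arrays at 1015 probe sets (6.37%) and below them at 795 (4.99%), whatever the size of the change. Within replicates 2 and 3 alone 3856 were called, 2023 higher and 1833 lower, or 24.2%. These p-values are set by the small spread between 2 closely similar arrays per genotype. The count of 48 also rested on single arrays. It reached 130 when cop1-4 BBX22-GFPox replicate 1 was left out and 372 when cop1-4 replicate 1 was. It dropped to 11 when cop1-4 BBX22-GFPox replicate 2 was left out, to 12 without its replicate 3, to 18 without replicate 2 or replicate 3 of cop1-4, and to 21 and 22 without replicates 2 and 3 of wild type. Within replicates 2 and 3 the count was 2364 without cop1-4 replicate 2, 2514 without cop1-4 BBX22-GFPox replicate 2 and 2226 without cop1-4 BBX22-GFPox replicate 3.

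The size of the effect itself differed between replicate 1 and replicates 2 and 3 at 1154 probe sets (limma, difference of the differences, adjusted p under 0.05), or 7.25% of those tested, with 580 (3.64%) higher and 574 (3.61%) lower in pair 1. The difference had opposite signs in pair 1 and in the mean of pairs 2 and 3 at 860 of them. The 1154 included 28 of the 178 recurring probe sets, 19 raised and 9 lowered, and 5 of the 48 called over 9 arrays. This test has 3 residual degrees of freedom, all from replicates 2 and 3, and assumes that the single replicate 1 array of each genotype varies like the others. The count was 766 without cop1-4 replicate 3 and 668 without cop1-4 BBX22-GFPox replicate 3. With arrays scaled to a common median, the split was 538 higher and 784 lower in pair 1.

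The direction seen within replicates 2 and 3 was met in pair 1 at about the same share of raised and lowered calls. Pair 1 was positive at 69.5% of the 2023 probe sets called higher within replicates 2 and 3, against 52.58% of all probe sets tested, and its median there was 0.22 against a median of 0.81 within replicates 2 and 3. It was negative at 64.7% of the 1833 called lower, with medians of -0.15 and -0.73. Among strong changes the 2 directions looked less alike. Where pairs 2 and 3 averaged a rise of 2 or more on the log2 scale, 115 probe sets had a pair 1 median of 1.16 and 82.6% were positive. Where they averaged a drop of that size, 71 probe sets had a pair 1 median of -0.12 and 46.5% were positive. The difference between the 2 directions was not tested.

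**Figure D1:**
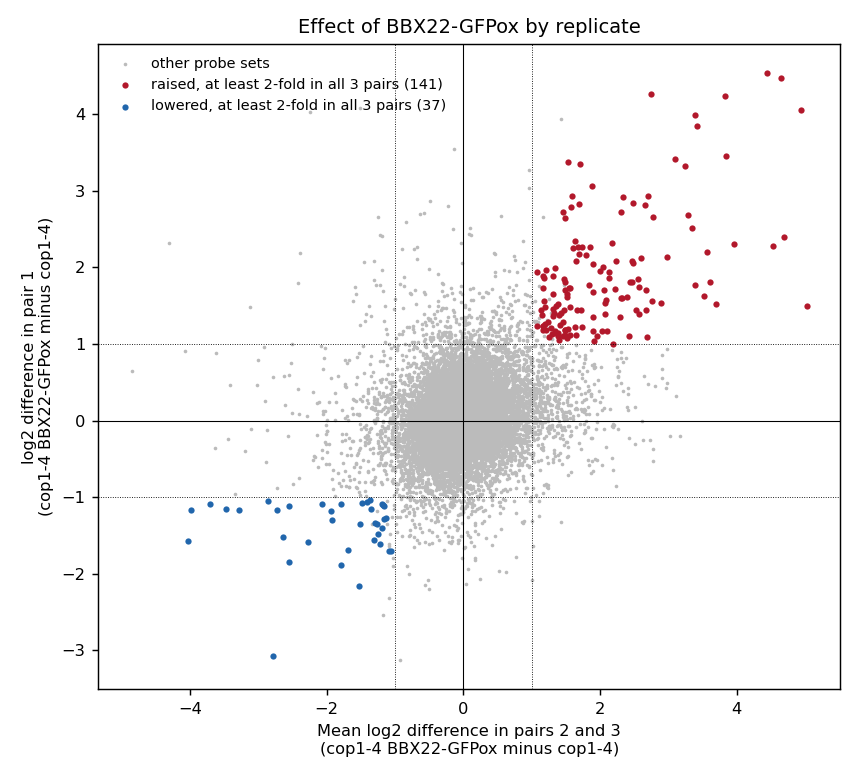
Difference between cop1-4 BBX22-GFPox and cop1-4 in pair 1 (vertical axis, log2) against the mean difference in pairs 2 and 3 (horizontal axis, log2) for the 15922 probe sets tested, with dotted lines at 2-fold. The 141 red and 37 blue points changed at least 2-fold the same way in all 3 pairs.

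The genes that recurred most strongly were almost silent in cop1-4 and clearly expressed with the construct. By the rule of the largest smallest pair difference, the first 12 raised genes with a probe set of their own were AT5G45500, ZW9, AT1G23130, AT2G01090, AT4G07820, AT5G44520, AT5G55790, AT1G58150, AT5G51620, AT5G16980, AT1G11280 and ECS1. Signals are given in the order of replicates 1, 2 and 3. AT5G45500 had signals of 726.8, 788.4 and 821 in cop1-4 BBX22-GFPox, against 9.3, 8.4 and 8.4 in cop1-4 and 2270.4, 2452.4 and 2465.5 in wild type. The 3 genotypes did not overlap, and the cop1-4 arrays lay below the offset of the log scale. AT5G45500 rose by 4.59 ± 0.16 (SE) on the log2 scale (limma, adjusted p = 6.23e-06), with 4.47, 4.63 and 4.68 in the 3 pairs.

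ZW9, on chromosome 1, behaved alike in the 3 pairs. Its signals were 1728.5, 1743.3 and 1545.4 in cop1-4 BBX22-GFPox, against 51.3, 51.1 and 52.7 in cop1-4 and 5394.2, 3476.4 and 3726.5 in wild type. Every cop1-4 BBX22-GFPox array thus stood between the cop1-4 and the wild type arrays. ZW9 rose by 4.47 ± 0.21 (adjusted p = 5.36e-05).

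AT1G23130 differed from these 2 in its wild type level. Its signals were 1325.9, 1419.8 and 1466.8 in cop1-4 BBX22-GFPox, against 57.1, 20.5 and 26.1 in cop1-4 and 23.9, 51.2 and 43.2 in wild type. The cop1-4 BBX22-GFPox arrays stood alone, and the cop1-4 and wild type arrays overlapped. AT1G23130 rose by 4.64 ± 0.27 (adjusted p = 2.25e-04).

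AT2G01090 reached wild type levels with the construct, with signals of 619.9, 956.5 and 929.5 in cop1-4 BBX22-GFPox, against 9.7, 46.6 and 40 in cop1-4 and 671, 789.9 and 591.6 in wild type. The cop1-4 BBX22-GFPox arrays lay far above cop1-4 and overlapped the wild type arrays. AT2G01090 rose by 3.97 ± 0.31 (adjusted p = 0.00154). AT4G07820 rose by 3.27 ± 0.51 (adjusted p = 0.0449) but stayed far under wild type, with signals of 683.7, 548.9 and 795 in cop1-4 BBX22-GFPox, 46.3, 58.5 and 38.6 in cop1-4 and 2483.5, 9430 and 11591.7 in wild type. Its call was lost without cop1-4 BBX22-GFPox replicate 1, 2 or 3, cop1-4 replicate 2 or 3, or wild type replicate 2 or 3, with adjusted p up to 0.242.

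The next genes of the rule were dimmer. AT5G44520 rose by 3.57 ± 0.37 (adjusted p = 0.00733), with 555.1, 500.9 and 534.3 in cop1-4 BBX22-GFPox, against 15.8, 5.2 and 61 in cop1-4 and 167.6, 286.4 and 249.1 in wild type. Its call was lost without cop1-4 BBX22-GFPox replicate 2 (adjusted p = 0.0543) or replicate 3 (0.0564). AT5G55790 rose by 3.09 ± 0.26 (adjusted p = 0.00205) and AT5G51620 by 3.07 ± 0.24 (adjusted p = 0.00154). For AT5G55790 the signals were 366.3, 396.9 and 349.1 in cop1-4 BBX22-GFPox and 36.5, 11.9 and 20.6 in cop1-4, with 505.2, 295.6 and 322.9 in wild type. For AT5G51620 they were 295.1, 419.6 and 455.1 in cop1-4 BBX22-GFPox and 31.6, 22.1 and 19.9 in cop1-4, with 281.9, 183.5 and 185.2 in wild type. Neither gene had overlapping cop1-4 genotypes. AT5G16980 rose by 3.25 ± 0.34 (adjusted p = 0.00781) with more in pair 1 (4.26) than in pairs 2 and 3 (3.02 and 2.47), a difference that was itself called (adjusted p = 0.0348). Its call over 9 arrays was lost without cop1-4 BBX22-GFPox replicate 2 (adjusted p = 0.0629).

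Some recurring genes differed between replicates as well as between genotypes, and over 9 arrays these were called with the replicate number as a block and not without it. AT1G58150 had signals of 520.4, 162.1 and 170.3 in cop1-4 BBX22-GFPox, against 62.3, 3 and 3.9 in cop1-4 and 199.1, 340.6 and 231.2 in wild type, with pair differences of 2.65, 2.76 and 2.78 (adjusted p = 0.107 without the block and 0.0269 with it). AT1G11280 had 168.1, 488.4 and 465.2 in cop1-4 BBX22-GFPox and 3, 38.8 and 74.2 in cop1-4, with 474.5, 633.1 and 647.1 in wild type (adjusted p = 0.0899 without the block and 0.00423 with it). ECS1 had 101.5, 792.7 and 826 in cop1-4 BBX22-GFPox, against 0.9, 30.6 and 27.1 in cop1-4 and 171.6, 111.8 and 73.4 in wild type (adjusted p = 0.124 without the block and 0.0386 with it). Its rise was smaller in pair 1 (2.31) than in pairs 2 and 3 (3.89 and 4.04), which was called as a difference (adjusted p = 0.0172). In each of the 3 genes, the cop1-4 BBX22-GFPox arrays lay above the cop1-4 arrays of any number, with the replicate 1 values apart from the others.

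Few of the recurring genes carry a symbol in the gene table: 13 of the 69 raised probe sets with 1 gene, and 2 of the 23 lowered ones. A further 11 raised probe sets had several genes and 61 raised and 14 lowered were unnamed. Besides ZW9, 4 of the raised ones were called over 9 arrays. GSTU22, a glutathione S-transferase of the tau class, had 332.1, 436.2 and 417.4 in cop1-4 BBX22-GFPox, against 68.8, 72.4 and 83.9 in cop1-4 and 312.5, 534.1 and 478.1 in wild type. AGL87, a MADS-box factor, had 309.7, 476.7 and 648.4 in cop1-4 BBX22-GFPox, against 68.3, 68.3 and 79.8 in cop1-4 and 117, 166.3 and 101.5 in wild type. CSA1, named for constitutive shade avoidance, had 147.3, 195.9 and 124.6 in cop1-4 BBX22-GFPox, against 16, 22.4 and 7.2 in cop1-4 and 131.6, 169.4 and 207 in wild type. Their arrays of the 2 cop1-4 genotypes were fully separated, and the changes were 2.07 ± 0.23, 2.32 ± 0.28 and 2.18 ± 0.26, with adjusted p of 0.00842 for GSTU22, 0.0134 for AGL87 and 0.0116 for CSA1. TGH (TOUGH), a protein of RNA processing, rose by 1.82 ± 0.23 (adjusted p = 0.0164), with 343.1, 253.8 and 275.1 in cop1-4 BBX22-GFPox, against 52.4, 52 and 93.8 in cop1-4 and 247.2, 265.8 and 299.2 in wild type. Leaving out 1 array at a time lost the call of GSTU22 without cop1-4 replicate 2 or cop1-4 BBX22-GFPox replicate 2 or 3. It lost that of CSA1 without cop1-4 replicate 3 or cop1-4 BBX22-GFPox replicate 2 or 3, and that of AGL87 without replicate 2 or 3 of either cop1-4 genotype. It lost that of TGH without wild type replicate 2 or 3, cop1-4 replicate 2, or cop1-4 BBX22-GFPox replicate 2 or 3.

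The other raised genes with symbols recurred in all 3 pairs without a call over 9 arrays. SBT4.12, a subtilase, had pair differences of 2.72, 2.23 and 2.38 (adjusted p = 0.46, with the block 0.0669). QQS, which in Arabidopsis shifts the balance of starch and protein, had 493.7, 223.2 and 258.2 in cop1-4 BBX22-GFPox, against 26.5, 52.5 and 60.6 in cop1-4 and 144.5, 352.9 and 366.7 in wild type (adjusted p = 0.0802, with the block 0.04). ETFBETA, the beta subunit of the mitochondrial electron transfer flavoprotein, had pair differences of 1.44, 1.70 and 1.75 (adjusted p = 0.172, with the block 0.0169). PDF2.1, a plant defensin, had 2.79, 1.51 and 1.65 (adjusted p = 0.195, with the block 0.0325), and DLAH, an acylhydrolase, had 1.96, 1.13 and 1.28 (adjusted p = 0.0933, with the block 0.0297). The flavonoid genes UGT78D1 and CHIL complete this group and are described with their pathway.

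Most of the recurring raised genes lay on chromosomes 1 and 5. Of the genes tested on chromosome 1, 31 of 2220 recurred as raised (1.396%), and on chromosome 5 the count was 21 of 2038 (1.03%). Chromosomes 2, 3 and 4 had 6 of 1253 (0.479%), 5 of 1744 (0.287%) and 5 of 1244 (0.402%). The recurring lowered genes leaned the same way, with 9 on chromosome 1 (0.405%) and 8 on chromosome 5 (0.393%). Chromosomes 2, 3 and 4 held 2 (0.16%), 2 (0.115%) and 1 (0.08%) of the lowered genes. Some of the raised genes were neighbours in the gene order of TAIR10.1, an assembly that served for names and order alone, as the files name no build. AT5G44520 and AT5G44530 are adjacent, as are AT5G51620 and AT5G51630. AT5G44530 rose by 2.00 ± 0.26 (adjusted p = 0.0221), with 134.1, 197.9 and 168.3 in cop1-4 BBX22-GFPox, against 8.4, 32 and 33.1 in cop1-4 and 123.7, 122 and 112.4 in wild type. AT5G51630 rose by 1.81 ± 0.26 (adjusted p = 0.0299), with 72.9, 126.2 and 88.6 in cop1-4 BBX22-GFPox, against 4, 21.6 and 4.6 in cop1-4 and 301.4, 310.9 and 303.2 in wild type. Neither pair of neighbours had overlapping cop1-4 genotypes.

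A second run of neighbours on chromosome 1 was AT1G52050, AT1G52070 and AT1G52100, with 1 protein-coding gene between each. AT1G52050 had 482.5, 1475.3 and 1543.2 in cop1-4 BBX22-GFPox, against 80.1, 49.4 and 35.5 in cop1-4 and 81.5, 462.3 and 432.3 in wild type (pair differences 2.28, 4.34 and 4.71). AT1G52070 had 293.1, 4659.7 and 4706.1 in cop1-4 BBX22-GFPox, against 126, 1605.9 and 1635.8 in cop1-4 and 17, 1019.8 and 743.9 in wild type (1.08, 1.52 and 1.51). AT1G52100 had 881.3, 4667 and 5856.2 in cop1-4 BBX22-GFPox, against 241.5, 456.5 and 500.6 in cop1-4 and 2306, 5347.6 and 3749.2 in wild type (1.77, 3.29 and 3.49). In cop1-4 BBX22-GFPox the replicate 1 array was the lowest of the 3 for each gene, and they were called with the replicate block (adjusted p = 0.0145 for AT1G52050, 0.0325 for AT1G52070 and 0.0117 for AT1G52100) but not over 9 arrays without it (0.0627, 0.999 and 0.181). AT1G52000, close by, went the other way, with pair differences of -1.09, -1.59 and -1.98 and no call over 9 arrays in either fit (adjusted p = 0.226, with the block 0.105).

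Downward recurrence was rarer. Over 9 arrays 3 probe sets fell, namely those of AT1G12080 and AT3G42800 and 1 with no gene named here. AT1G12080 had signals of 1039.2, 1179.3 and 948.9 in cop1-4 BBX22-GFPox, against 3177.3, 5543.2 and 4928.3 in cop1-4 and 16059.9, 10734.9 and 12107.6 in wild type, a change of -2.05 ± 0.27 (adjusted p = 0.0221). AT3G42800 had 116, 121.8 and 137.3 in cop1-4 BBX22-GFPox, against 322, 587.2 and 531.7 in cop1-4 and 401.8, 407.4 and 419.5 in wild type, a change of -1.72 ± 0.23 (adjusted p = 0.0223). The unnamed probe set had 330.9, 277.9 and 221.2 in cop1-4 BBX22-GFPox, against 779, 1116.5 and 936.2 in cop1-4 and 1924.6, 2124.4 and 1599.4 in wild type, a change of -1.69 ± 0.23 (adjusted p = 0.0228). In all 3 the cop1-4 BBX22-GFPox arrays were the lowest of the 9. Each of these calls was lost without replicate 2 or 3 of any 1 of the 3 genotypes, with adjusted p between 0.0606 and 0.156. Each was also lost with only the 6 arrays of the cop1-4 genotypes. Adjusted p was then 0.118 for AT1G12080, 0.167 for AT3G42800 and 0.14 for the unnamed probe set.

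Among the other lowered genes of the rule, the call came with the replicate block. AOP3, a dioxygenase that modifies glucosinolate side chains, had signals of 13, 32.6 and 11 in cop1-4 BBX22-GFPox, against 86.8, 592.6 and 852.8 in cop1-4 and 8.1, 4.4 and 24.4 in wild type. Its level with the construct lay within or near the wild type range, and its difference was smaller in pair 1 (-1.57) than in pairs 2 and 3 (-3.43 and -4.63), which was called as a difference (adjusted p = 0.016). AT2G25510 followed the same course, with 1394.7, 480.8 and 483.5 in cop1-4 BBX22-GFPox, against 3152.6, 3824.3 and 6264.8 in cop1-4 and 72.4, 71.2 and 95.7 in wild type. It had -1.16 in pair 1 and -2.93 and -3.63 in pairs 2 and 3 (difference, adjusted p = 0.00248). AT3G46490 was even across pairs, with -1.69, -1.67 and -1.69 and signals of 90.2, 149.3 and 137.8 in cop1-4 BBX22-GFPox, against 346, 530.2 and 499 in cop1-4 and 56.9, 98.6 and 111.2 in wild type (adjusted p = 0.057, with the block 0.00423). AT1G42705, AT5G42840 and AT3G53250 had block p-values of 0.0044, 0.0247 and 0.0265, and cop1-4 signals above every cop1-4 BBX22-GFPox signal. AT1G42705 came first of the lowered genes by the rule, with pair differences of -3.08, -2.82 and -2.75. Its signals were 44.6, 1.6 and 1.4 in cop1-4 BBX22-GFPox, against 558.7, 159.9 and 149.7 in cop1-4 and 66.6, 49.9 and 27.6 in wild type. With the construct, its replicates 2 and 3 lay below the offset of 24.5. Without the block, adjusted p over 9 arrays was 0.133 for AOP3, 0.0575 for AT2G25510, 0.0933 for AT1G42705, 0.163 for AT5G42840 and 0.133 for AT3G53250. P1R1, the other lowered gene with a symbol, had pair differences of -1.40, -1.36 and -1.04 (adjusted p = 0.0991, with the block 0.0508).

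**Figure D2:**
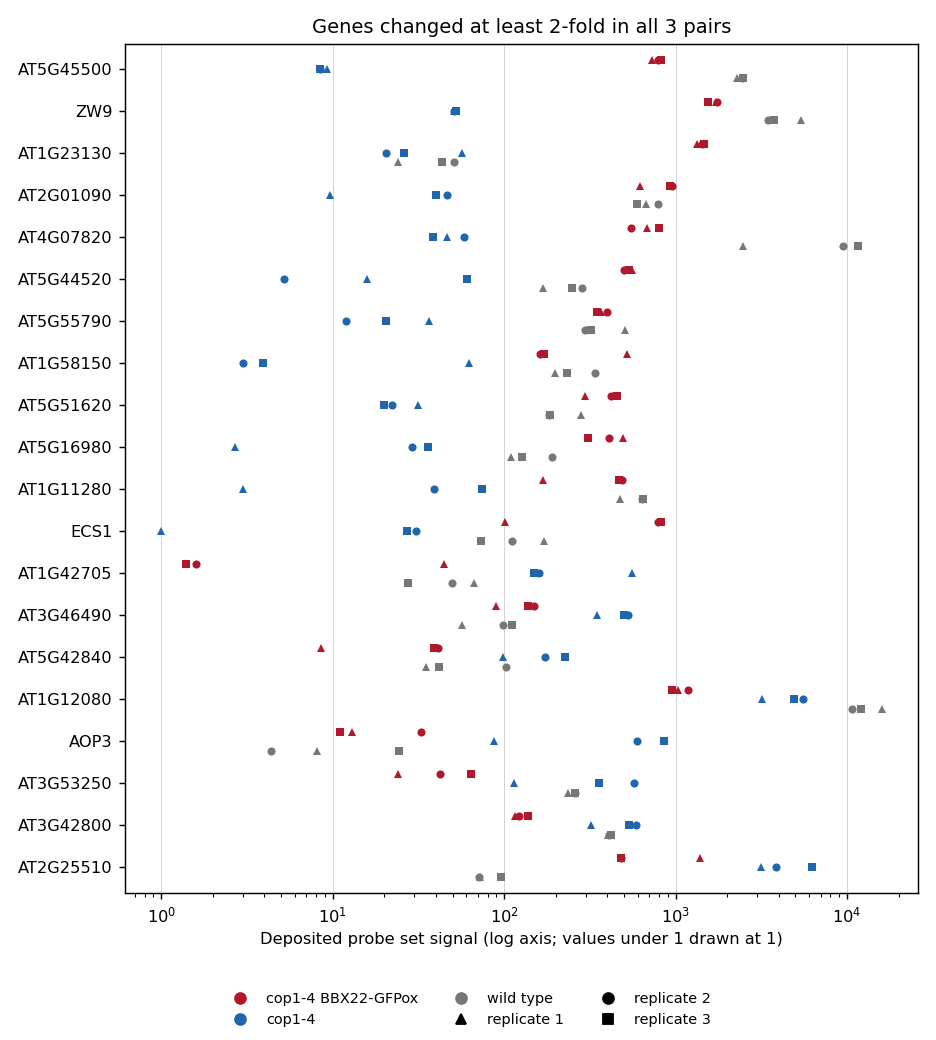
Deposited signal (horizontal log axis) of the 12 raised and 8 lowered genes of the rule on each of the 9 arrays, with genotype by colour and replicate by shape. For AT5G45500 the cop1-4 arrays lie at 8.4 to 9.3 and the cop1-4 BBX22-GFPox arrays at 726.8 to 821, and the lower 8 genes have cop1-4 BBX22-GFPox left of cop1-4.

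Flavonoid and anthocyanin genes rose together within replicates 2 and 3. Flavonoids are phenylpropanoid pigments and ultraviolet screens made by seedlings as they see light, and chalcone isomerase-like protein (CHIL), dihydroflavonol reductase (DFR) and a series of glycosyl- and acyltransferases act along the pathway. Of 28 listed genes 8 had a probe set named here and 7 were tested. All 7 rose within replicates 2 and 3, where 12.7% of all probe sets tested did, and 0 of the 7 were called over 9 arrays, where 0.283% were called higher. The medians of the 7 were 0.35 in pair 1, 1.97 in pair 2 and 1.53 in pair 3, beside 0.03, 0.02 and -0.07 over all probe sets. The list was chosen with earlier results of these data known.

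For 4 of the 7 genes of the pathway tested the construct's effect differed between replicates, beside 7.25% of all probe sets. DFR had signals of 56.2, 1509.5 and 1192.4 in cop1-4 BBX22-GFPox, against 32.7, 106.2 and 202.8 in cop1-4 and 40, 138 and 209.4 in wild type. Only replicates 2 and 3 of cop1-4 BBX22-GFPox were high, and DFR rose there by 2.99 ± 0.25 (adjusted p = 9.8e-07). UF3GT, an anthocyanin glycosyltransferase, had 13.1, 618.4 and 593.1 in cop1-4 BBX22-GFPox, against 20.5, 55.2 and 88.8 in cop1-4 and 9, 102.7 and 186.3 in wild type, and rose by 2.73 ± 0.24 (2.05e-06). AT4G14090 had 5.8, 537.7 and 559.8 in cop1-4 BBX22-GFPox, against 2.2, 69.2 and 82.3 in cop1-4 and 11.3, 109.9 and 96.1 in wild type, and rose by 2.52 ± 0.18 (3.69e-07). AT5MAT, an anthocyanin malonyltransferase, had 4.5, 241.3 and 224.9 in cop1-4 BBX22-GFPox, against 21.5, 43.5 and 84.2 in cop1-4 and 8, 46.2 and 89.3 in wild type, and rose by 1.58 ± 0.28 (8.08e-04). In pair 1 these 4 genes had differences of 0.50, -0.26, 0.18 and -0.67, and the test of the difference between replicate 1 and replicates 2 and 3 called each of them, with adjusted p of 0.0044 for DFR, 0.00159 for UF3GT, 0.00233 for AT4G14090 and 0.0182 for AT5MAT.

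The other 3 members had positive differences in every pair. CHIL had 336, 3029.3 and 2987.8 in cop1-4 BBX22-GFPox, against 133.9, 1091.8 and 1018.1 in cop1-4 and 8.3, 152.6 and 155.8 in wild type. In each pair the construct went with about the same step, 1.19, 1.45 and 1.53, and CHIL was the 1 flavonoid gene called with the replicate block (adjusted p = 0.0125, without it 0.975). UGT78D1, a flavonol glycosyltransferase, had 102.1, 952 and 899.2 in cop1-4 BBX22-GFPox, against 10.7, 297.8 and 340.7 in cop1-4 and 122.6, 257.1 and 231 in wild type. Its steps were 1.85, 1.60 and 1.34 (adjusted p within replicates 2 and 3 = 9.15e-06, with the block over 9 arrays 0.156). UGT78D2, which acts on flavonols and anthocyanidins, rose by 0.61 ± 0.16 within replicates 2 and 3 (adjusted p = 0.011), with 0.35, 0.87 and 0.36 in the pairs. For these 3 genes the difference between replicate 1 and replicates 2 and 3 was not called (adjusted p = 0.539, 0.509 and 0.643).

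The 7 genes tested also differed in level between replicates. Set against the mean of replicates 2 and 3, replicate 1 was lower for each of the 7 genes, by a median of 3.15 on the log2 scale in cop1-4 BBX22-GFPox, 1.59 in cop1-4 and 1.60 in wild type. The part of this level in the pair 1 differences of DFR, UF3GT, AT4G14090 and AT5MAT was not tested.

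**Figure D3:**
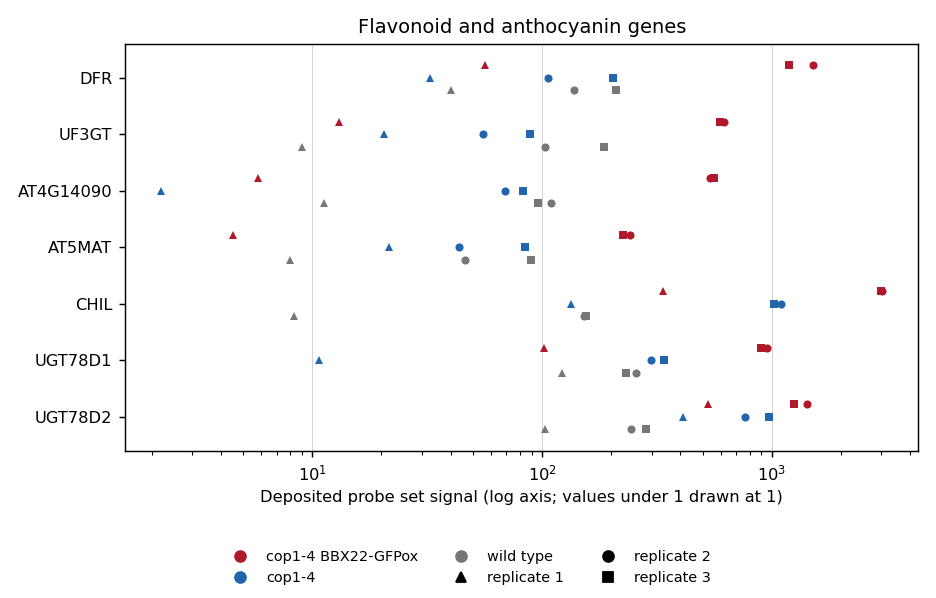
Deposited signal (horizontal log axis) of the 7 flavonoid and anthocyanin genes tested, with genotype by colour and replicate by shape. In replicates 2 and 3 (circles and squares) cop1-4 BBX22-GFPox lies right of cop1-4 for all 7 genes, and the replicate 1 triangles of DFR, UF3GT, AT4G14090 and AT5MAT lie at the low end in all genotypes.

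Of 2 light signalling genes tested, 1 rose within replicates 2 and 3, where 12.7% of all probe sets did. HYH, a bZIP factor that promotes light responses, had 346.3, 619.7 and 683.8 in cop1-4 BBX22-GFPox, against 254.2, 202.7 and 202.9 in cop1-4 and 71.4, 137.1 and 136.9 in wild type. The 3 genotypes did not overlap, and HYH rose within replicates 2 and 3 by 1.57 ± 0.16 (adjusted p = 8.51e-06), with 0.41 in pair 1 (difference, adjusted p = 0.0251). The other light signalling gene tested, FHL, which helps carry phytochrome A into the nucleus, was not called, with -0.28, -0.98 and -0.17 in the pairs. None of the other B-box genes listed was tested.

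Of 8 photosystem and antenna genes tested, 1 rose and 1 fell within replicates 2 and 3, shares near the 12.7% and 11.5% of all probe sets called higher and lower there. LHCB4.2, a minor antenna protein of photosystem II, had 9930.1, 6420 and 8407.6 in cop1-4 BBX22-GFPox, against 5317.2, 1532.5 and 1401.8 in cop1-4 and 7268.3, 6632.4 and 5542.3 in wild type. Every cop1-4 BBX22-GFPox array was above every cop1-4 array, and the change was 2.31 ± 0.15 within replicates 2 and 3 (adjusted p = 1.39e-07). Pair 1 had a smaller rise of 0.90 (difference, adjusted p = 0.00593). Over 9 arrays the adjusted p of LHCB4.2 was 0.0445 with the replicate block and 0.231 without it. Its paralogue LHCB4.3 fell by 0.70 on the log2 scale within replicates 2 and 3 (adjusted p = 0.00686), a call lost without replicate 2 of cop1-4 (0.113) or of cop1-4 BBX22-GFPox (0.0672). LHCB4.3 had -0.47 in pair 1. The medians of the 8 were -0.28, -0.01 and 0.29 in the pairs.

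Of 4 Calvin cycle genes tested 1 rose and 1 fell within replicates 2 and 3, and of 3 photorespiration genes 1 rose. There 12.7% of all probe sets tested were called higher and 11.5% lower. PRK, the phosphoribulokinase of the Calvin cycle, rose within replicates 2 and 3 by 0.85 ± 0.14 (adjusted p = 4.5e-04), with -0.11 in pair 1. AT1G56190 fell by 0.78 on the log2 scale (adjusted p = 7.34e-04), with -0.48 in pair 1. HPR, the hydroxypyruvate reductase of photorespiration, had 22651.2, 8638 and 9250.9 in cop1-4 BBX22-GFPox, against 22701.1, 3594 and 3971.4 in cop1-4 and 2145.8, 2233.6 and 1753.8 in wild type. Replicate 1 of both cop1-4 genotypes was equally high, and HPR rose by 1.24 ± 0.14 within replicates 2 and 3 (adjusted p = 2.48e-05; difference, 0.00864). Of 9 chlorophyll biosynthesis genes 1 rose and 1 fell, shares near those of all probe sets. CHLM, the magnesium-protoporphyrin methyltransferase, rose by 0.72 ± 0.17 (adjusted p = 0.00664), and lost its call without replicate 3 of cop1-4 (0.0635) or of cop1-4 BBX22-GFPox (0.11). CHLM had -0.15 in pair 1. PORB, the protochlorophyllide oxidoreductase that prepares dark-grown seedlings for greening, had 1109.4, 678.1 and 558 in cop1-4 BBX22-GFPox, against 1328.9, 2157.1 and 2029 in cop1-4 and 8669.1, 13371 and 15508.3 in wild type. The genotypes were in the same order in every replicate, and PORB fell within replicates 2 and 3 by 1.73 on the log2 scale (SE 0.14, adjusted p = 8.75e-07), with -0.26 in pair 1 (difference, adjusted p = 0.00245). Neither of the 2 carotenoid genes tested was called.

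Of the 69 probe sets of plastid-encoded genes, all tested, 10 rose within replicates 2 and 3, a share near the 12.7% of all probe sets. There 0 fell, where 11.5% of all probe sets did, and 0 were called over 9 arrays. Their medians were 0.20, 0.18 and 0.05 in the pairs. rbcL, the large subunit of Rubisco, had 1852.8, 1441.8 and 1814.4 in cop1-4 BBX22-GFPox, against 1045.2, 778.3 and 842.2 in cop1-4 and 1839.6, 973.8 and 1079 in wild type, with the 2 cop1-4 genotypes apart in every array. It rose by 0.98 ± 0.15 within replicates 2 and 3 (adjusted p = 2.39e-04). psaA, a core protein of photosystem I, rose by 0.93 ± 0.18 (adjusted p = 0.00171), with 0.90 in pair 1. rps14, a ribosomal protein gene, rose by 1.00 ± 0.21 (adjusted p = 0.00299) but had -2.08 in pair 1 (difference, adjusted p = 2.35e-04). Replicate 1 had the higher level for 59, 55 and 58 of the 69 in cop1-4 BBX22-GFPox, cop1-4 and wild type.

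Of 27 auxin-responsive genes listed, 5 had a probe set named here and 4 were tested. In pair 1, 3 of the 4 were positive, with a median of 0.45. Of the 4 genes tested, 3 fell within replicates 2 and 3, where 11.5% of all probe sets did. The difference between replicate 1 and replicates 2 and 3 was called for each of the 3, beside 7.25% of all probe sets. GH3.3, which conjugates auxin to amino acids, had 86, 82.1 and 69 in cop1-4 BBX22-GFPox, against 101.6, 497.8 and 349.6 in cop1-4 and 851.1, 303.3 and 304.9 in wild type. Replicates 2 and 3 of cop1-4 were high and its replicate 1 was not, and GH3.3 fell by 2.15 on the log2 scale (SE 0.19, adjusted p = 2.4e-06; difference, 0.00314). IAA29, an Aux/IAA repressor, had 168, 168.1 and 150.7 in cop1-4 BBX22-GFPox, against 122.8, 566.9 and 370.3 in cop1-4 and 574.9, 487.3 and 415.7 in wild type, and fell by 1.395 (SE 0.20, adjusted p = 1.34e-04), with 0.39 in pair 1 (difference, 0.00639). WES1, another auxin-conjugating GH3 enzyme, fell by 0.63 (SE 0.14, adjusted p = 0.00511), with 0.52 in pair 1 (difference, 0.0106).

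Of 12 expansin and xyloglucan enzyme genes tested, which act in wall loosening, 3 rose and 3 fell within replicates 2 and 3, where 12.7% and 11.5% of all probe sets did. In the test of the difference 6 of the 12 were called, beside 7.25% of all probe sets. EXPA8, an expansin, had 249.8, 444.5 and 461.8 in cop1-4 BBX22-GFPox, against 313.6, 1883.4 and 1790.1 in cop1-4 and 4156, 4407.5 and 4548.4 in wild type, with the lowest level in cop1-4 BBX22-GFPox in every replicate. It fell by 1.96 (SE 0.13, adjusted p = 1.06e-07), and pair 1 had -0.30 (difference, 5.87e-04). XTH33 and XTH19, xyloglucan endotransglucosylases, fell by 1.47 and 0.90 on the log2 scale (adjusted p = 8.61e-06 and 7.11e-04), with 0.32 and 2.23 in pair 1. EXPA4, EXPB3 and XTH32 rose by 0.68, 0.66 and 0.53 (adjusted p = 0.00379, 0.0105 and 0.013), and EXPB3 lost its call without cop1-4 replicate 3 (0.0697) or cop1-4 BBX22-GFPox replicate 2 (0.0869). In pair 1 EXPA4 had -0.24 and EXPB3 had 0.22. Most of the list was lower in replicate 1 whatever the genotype, 10 of 12 genes in cop1-4 BBX22-GFPox, 10 in cop1-4 and 11 in wild type.

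Further wall families had calls within replicates 2 and 3 in different directions, beside 12.7% of all probe sets called higher and 11.5% called lower. Of 16 trichome birefringence-like genes, whose products acetylate wall polysaccharides, 2 rose and 0 fell. Of 9 glycosyl hydrolase family 9 genes, the family of endoglucanases, 4 fell within replicates 2 and 3 and 0 rose, among them GH9C2 by 1.15 and GH9B13 by 1.11 on the log2 scale (adjusted p = 1.02e-04 and 1.99e-04). Of 7 cellulose synthase and related genes 2 fell and 0 rose, both of the CSLC class of xyloglucan backbone synthases. CSLC04 had 512.4, 971.3 and 874.7 in cop1-4 BBX22-GFPox, against 557.1, 2384.8 and 2963.1 in cop1-4 and 3186.5, 4011 and 3795.9 in wild type, and fell by 1.504 (SE 0.14, adjusted p = 3.28e-06). Pair 1 was at -0.12 (difference, 0.00368).

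Transporter and detoxification families are given beside the same 12.7% called higher and 11.5% called lower. Of 13 cytochromes P450 tested 1 rose and 2 fell, and of 2 cation and nitrate transporters 0 were called. Of 7 SWEET sugar transporters tested 4 rose within replicates 2 and 3 and 0 fell. SWEET13 had 25.1, 252.8 and 222.5 in cop1-4 BBX22-GFPox, against 56.6, 56.4 and 76.4 in cop1-4 and 66, 17.8 and 9.9 in wild type, and was high only in replicates 2 and 3 of cop1-4 BBX22-GFPox. It rose by 1.53 ± 0.24 (adjusted p = 3.92e-04; difference, 0.00605). Of 11 glutathione S-transferases 5 rose and 1 fell. GSTU26 rose by 1.82 ± 0.15 within replicates 2 and 3 (adjusted p = 8.59e-07), with 0.17 in pair 1 (difference, 0.00159). GSTU16 was called with the replicate block (adjusted p = 0.0244), with 1.29, 0.88 and 1.22 in the pairs. GSTU20 fell by 0.89 (adjusted p = 3.29e-04), with 0.86 in pair 1. Of 35 UDP-glycosyltransferases 9 rose and 6 fell, and of 11 ubiquitin-conjugating enzymes 5 rose and 0 fell. UBC18 had 402.3, 618.3 and 487.2 in cop1-4 BBX22-GFPox, against 168.5, 269.5 and 255.8 in cop1-4 and 370.2, 439.5 and 400.1 in wild type. Its cop1-4 genotypes did not overlap (adjusted p with the block = 0.0269, without it 0.153).

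Of 2 genes of seed reserves and their use that were tested, 1 rose within replicates 2 and 3, where 12.7% of all probe sets did. ICL, the isocitrate lyase of the glyoxylate cycle that turns stored oil into sugar, had 11890.5, 4448.9 and 4666.2 in cop1-4 BBX22-GFPox, against 8452, 838.5 and 963.1 in cop1-4 and 9458.9, 6012.6 and 7110.2 in wild type. In replicates 2 and 3 the cop1-4 level was far below both others, and ICL rose by 2.31 ± 0.14 (adjusted p = 4.66e-08), with 0.49 in pair 1 (difference, 5.27e-04). Of 4 cold, abscisic acid and heat genes 3 fell, beside 11.5% of all probe sets, namely COR15B by 1.42, the heat shock protein gene ATHSP22.0 by 1.00 and COR47 by 0.62 on the log2 scale (adjusted p = 5.99e-04, 0.0121 and 0.00519). In pair 1 COR15B had -0.055 and ATHSP22.0 had -0.34, and 0 of the 4 genes were positive. ATHSP22.0 lost its call without cop1-4 replicate 2 (0.0692) or cop1-4 BBX22-GFPox replicate 3 (0.127). Of 4 gibberellin, brassinosteroid and ethylene genes tested 2 rose and 0 fell, beside 12.7% of all probe sets called higher and 11.5% lower. The gibberellin receptors GID1B and GID1A rose by 0.79 and 0.44 (adjusted p = 0.00364 and 0.0479), the first losing its call without cop1-4 replicate 2 (0.0509) and the second without replicate 2 or 3 of either cop1-4 genotype (0.0618 to 0.285). In pair 1 GID1B had 0.91 and GID1A had -0.20. With the replicate block within replicates 2 and 3 the adjusted p of GID1A was 0.0571, and its call was lost in 10 of 15 alternatives in all.

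Changes seen in replicates 2 and 3 with a pair 1 difference under 0.5 in size were taken by rule from genes called both within replicates 2 and 3 and in the test of the difference. The raised ones were AT5G18600, DFR, AT5G35940, AT3G62950, UF3GT and AT2G05540. AT5G18600 had 4178.2, 2561.2 and 3041 in cop1-4 BBX22-GFPox, against 4824.8, 310.5 and 264.7 in cop1-4 and 2022.1, 323.9 and 390.4 in wild type. Replicate 1 was the highest array in each of the 3 genotypes, and in replicates 2 and 3 cop1-4 BBX22-GFPox alone was high. AT2G05540 had 11728.6, 5539.4 and 6505.2 in cop1-4 BBX22-GFPox, against 13971.1, 945.9 and 945 in cop1-4 and 22294.9, 13968.9 and 17541.8 in wild type. AT5G35940 differed in form, with 79.4, 417.4 and 322 in cop1-4 BBX22-GFPox, 51.6, 30.6 and 32 in cop1-4 and 196, 506 and 586 in wild type. Here the replicate 1 array of cop1-4 BBX22-GFPox was low. Within replicates 2 and 3 the 6 genes rose by 2.64 to 3.18 on the log2 scale, with pair 1 differences of -0.37 to 0.50.

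The lowered ones were AT2G43620, AT3G48970, AT5G50335, AT4G18970, AT5G22580 and AT5G19100, which fell within replicates 2 and 3, with changes between -3.41 and -2.41. AT4G18970 had 187.3, 422.3 and 464.8 in cop1-4 BBX22-GFPox, against 159.3, 2917.6 and 2725.2 in cop1-4 and 4790.4, 5657 and 6014.6 in wild type. AT3G48970 had 116.6, 146.2 and 112.6 in cop1-4 BBX22-GFPox, against 127.1, 1435.9 and 1171 in cop1-4 and 2977.9, 2956.2 and 3796.9 in wild type. In both, cop1-4 BBX22-GFPox and replicate 1 of cop1-4 were low together, and wild type was high throughout. AT2G43620 had 595.2, 69.3 and 67.7 in cop1-4 BBX22-GFPox, against 423.5, 875 and 1064.1 in cop1-4 and 37, 53.2 and 56.7 in wild type.

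A few genes turned round between replicates. LCR67 is the plant defensin PDF1.1, and M17 belongs to the proteins that accumulate late in embryogenesis. M17 had 3995.9, 2.1 and 0.4 in cop1-4 BBX22-GFPox, against 222.4, 81.3 and 117.2 in cop1-4 and 336, 24.3 and 2.4 in wild type, or 4.03, -1.99 and -2.51 in the pairs (difference, adjusted p = 1.15e-05). LCR67 had 3330, 12.9 and 40.7 in cop1-4 BBX22-GFPox, against 173.6, 101.1 and 132.4 in cop1-4 and 403.9, 188.9 and 67 in wild type, or 4.08, -1.75 and -1.27 (difference, 1.61e-04). For both, replicate 1 of cop1-4 BBX22-GFPox was the highest of the 9 arrays. AT4G35720 had 112.5, 119.1 and 129.2 in cop1-4 BBX22-GFPox, against 5.6, 781.7 and 724.1 in cop1-4 and 2102.1, 3126.7 and 3116.6 in wild type, so that the cop1-4 arrays, not those with the construct, differed between replicates. AT4G37850 turned the other way, with -1.33 in pair 1 and 1.49 and 1.37 in pairs 2 and 3. THI2.2, a thionin of plant defence, had 1433.1, 4378.3 and 5705.4 in cop1-4 BBX22-GFPox, against 4492.3, 2486.6 and 2395.7 in cop1-4 and 7.4, 7.8 and 7.4 in wild type, or -1.63, 0.81 and 1.24 in the pairs (difference, 9.59e-05).

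Changes of replicate 1, with pairs 2 and 3 under 0.5 in size, were led by genes of late embryogenesis. LEA18 had 1692.1, 36.8 and 45.6 in cop1-4 BBX22-GFPox, against 222.7, 59.6 and 44.6 in cop1-4 and 2077.5, 69.5 and 107.6 in wild type. AtLEA4-1 had 854, 31 and 25.7 in cop1-4 BBX22-GFPox, against 151.3, 47.2 and 15.9 in cop1-4 and 1572.6, 52.6 and 131.8 in wild type. Replicate 1 was far above replicates 2 and 3 in every genotype, and in it cop1-4 was the lowest of the 3. The difference of the effect was called for LEA18 (adjusted p = 3.41e-04) and AtLEA4-1 (0.0205), the second losing its call without cop1-4 replicate 2 (0.0602) or cop1-4 BBX22-GFPox replicate 3 (0.0563). The call of AtLEA4-1 in this test was also lost with no offset (adjusted p = 0.122), no filter (0.104) or quantile normalization (0.0541). All 4 tested genes with a late embryogenesis symbol were higher in replicate 1, by a median of 3.88 on the log2 scale in cop1-4 BBX22-GFPox, 1.52 in cop1-4 and 2.50 in wild type. This family was added after values were seen. The third raised gene of the rule was AT1G04390, with 2.05, 0.45 and -0.49 in the pairs (difference, 0.0172, lost without replicate 3 of cop1-4 or of cop1-4 BBX22-GFPox). On the lowered side, 3xHMG-box2, a high mobility group protein of chromatin, had 24.5, 562.9 and 452.2 in cop1-4 BBX22-GFPox, against 145.3, 392.7 and 502.1 in cop1-4 and 302.1, 394.7 and 404 in wild type (difference, 0.00171). AT3G06990 and AT3G03060 had -1.93 and -1.80 in pair 1, and between -0.080 and 0.15 in the other pairs (difference, 0.0125 and 0.0148). AT3G03060 lost this call without cop1-4 replicate 3 or cop1-4 BBX22-GFPox replicate 2. With no filter, AT1G04390, AT3G06990 and AT3G03060 each lost the call of the difference (adjusted p = 0.0661, 0.0542 and 0.065).

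**Figure D4:**
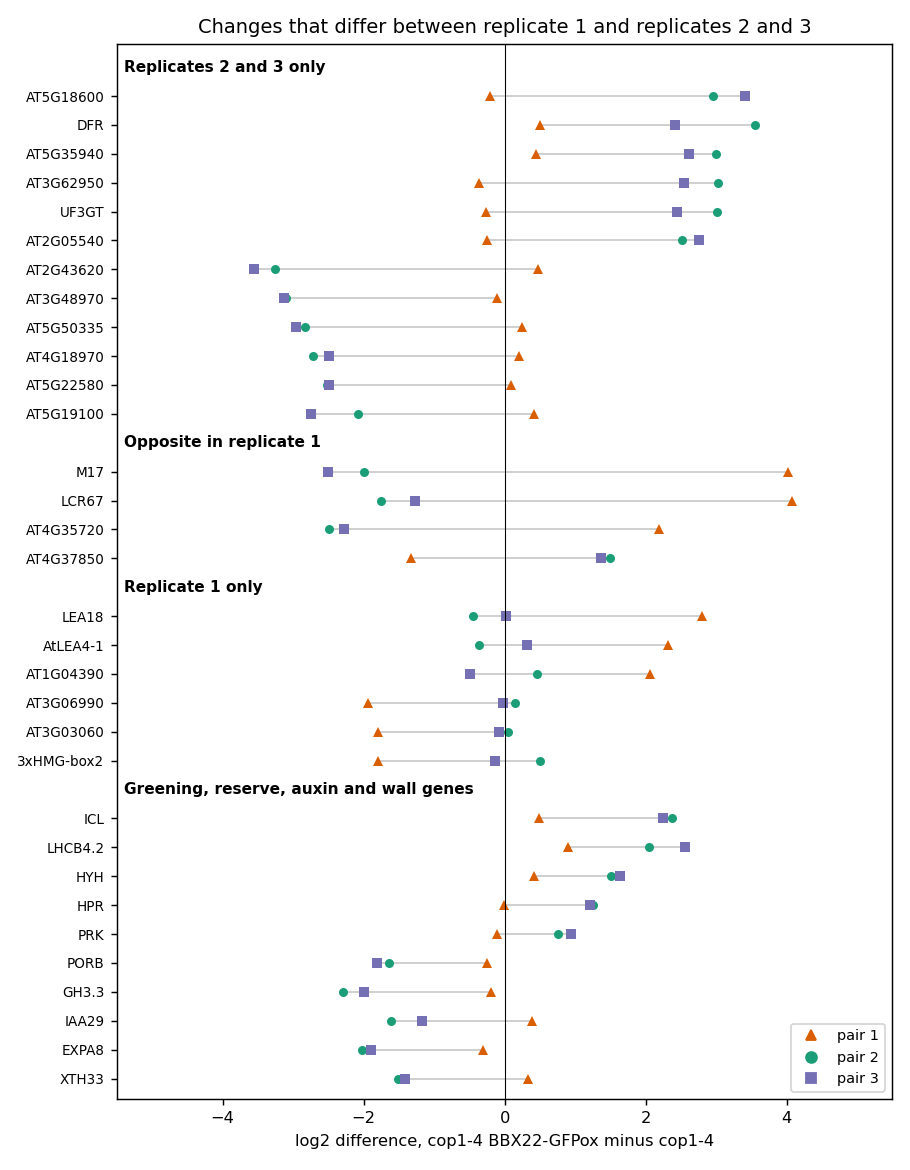
Difference between cop1-4 BBX22-GFPox and cop1-4 (horizontal axis, log2) in pairs 1, 2 and 3 for genes changed in replicates 2 and 3 only, turned round, or changed in replicate 1 only, and for 10 genes of the greening, reserve, auxin and wall lists. DFR has 0.50, 3.55 and 2.42 in pairs 1, 2 and 3, and M17 and LCR67 have pair 1 at 4.03 and 4.08 and the other pairs below 0.

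Genes used as stable references and markers of seedling parts were not called. The 5 reference genes tested, among them GAPC2 and PEX4, had pair differences between -0.41 and 0.43. The root hair expansins EXPA7 and EXPA18 had pair differences between -0.77 and 0.22 and no call within replicates 2 and 3, but both were lower in replicate 1 of every genotype, by a median of 2.57 on the log2 scale in cop1-4 BBX22-GFPox, 2.03 in cop1-4 and 2.74 in wild type. EXPA18 had 33.8, 596.9 and 505.9 in cop1-4 BBX22-GFPox, against 64.3, 750.3 and 573.8 in cop1-4 and 40.4, 403.1 and 373.9 in wild type. Of the 6 root hair markers listed these 2 were tested, of the 6 stomatal lineage markers 2 were tested and neither was called, and of the 4 root endodermis markers 0 were. The part of these cell types in the differences between replicates was not tested.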

How the data were processed

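RNA from whole dark-grown seedlings was hybridised to Affymetrix arrays of 1 colour, 9 in all. Each deposited intensity is a linear MAS5 value for 1 probe set, according to the submitters' processing notes. The sources used here give neither its version nor its target signal. All arrays had trimmed means of 495 to 496, and the number of arrays limits the precision. Of 22746 probe sets, the platform annotation gave 13513 a single gene, 503 several genes and 8730 no name here. The TAIR10.1 gene table held 13436 of the single genes.

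Values were taken as log2(intensity + 24.5), the offset being the 20th percentile. This shrinks the differences of dim probe sets. Probe sets with a mean at or above the 30th percentile were kept (15922). Fits used limma 3.58.1 in R 4.3.3 (lmFit, then eBayes with the trend option), two-sided with Benjamini-Hochberg adjustment over all probe sets: over 9 arrays with 1 mean per genotype, within replicates 2 and 3, and for the difference between replicate 1 and replicates 2 and 3. A gene is said to have risen or fallen only where a fit called it at an adjusted p under 0.05. On simulated data, changes of 2 on the log2 scale were recovered in 65% over 9 arrays, 93.8% within replicates 2 and 3 and 57.5% for the difference. Changes of 1 were recovered in 20%, 58.8% and 5%. The noise was drawn independently for each array, without the shared shift of replicate 1. For the difference, replicate 1 was given the spread of replicates 2 and 3. These shares therefore need not hold for the data.

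Replicate numbers were taken to pair the samples: deviations from the genotype means correlated between same-numbered arrays of cop1-4 BBX22-GFPox and cop1-4 at 0.806, 0.719 and 0.641. With replicate 1 apart, the deviations of the other arrays are bound to correlate as well (cop1-4 BBX22-GFPox replicate 2 with cop1-4 replicate 3, 0.739), so replicates 2 and 3 are not separately shown to pair.

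Genes named are, by rule, the 12 raised and 8 lowered with the largest smallest pair difference among those at least 2-fold one way in all 3 pairs. Added to these are up to 6 each way changed in replicates 2 and 3 only, up to 3 each way turned round or changed in replicate 1 only, the probe sets lowered over 9 arrays, and up to 2 called members each way of each list. The brightest probe set stood for a gene. Recurring genes with a symbol, neighbouring genes and further family members were chosen after their values were seen. The comparison, lists and families were chosen with earlier results of these data known. Lists held more genes than were tested. Tested were 2 of 27 light signalling, 8 of 45 photosystem and antenna, 4 of 20 Calvin cycle and 9 of 26 chlorophyll biosynthesis genes. For seed reserves and their use, 2 of 19 were tested. The alternatives were other offsets, filters and scalings, the replicate block, batch and array weights, and each array left out.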

Additional observations from a re-analysis of the deposited data

How the results depend on the processing

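The 48 calls over 9 arrays became 206 with the replicate block, 432 with replicate 1 as a batch term, 3510 with array weights and 3856 with replicates 2 and 3 alone, each of which held all 48. They became 27 with the filter at the 50th percentile and 14 with only the 6 arrays of the cop1-4 genotypes, and 11 to 372 with 1 array left out. With only those 6 arrays of the cop1-4 genotypes, AT5G44520 and AT5G16980 lost their calls (adjusted p = 0.0685 each). So did CSA1 (0.0891), AGL87 (0.0932), TGH (0.118) and the 3 lowered probe sets. The 3856 calls within replicates 2 and 3 ranged from 2226 to 4371 with 1 array left out. The 1154 calls of the difference became 628 with no filter and ranged from 668 to 1411 with 1 array left out. The 178 recurring probe sets became 90 with an offset of 100, 110 with the filter at the 50th percentile, 570 at 1.5-fold, and 76 when the lowest array of one genotype had to exceed the highest of the other by at least 2-fold. Why these counts moved was not tested. Of 673 alternative values for 33 genes over 9 arrays, 55 lost the call and 82 gained it. Of 562 for 38 genes within replicates 2 and 3, 21 lost it, and GI, a clock gene without a call, changed sign without cop1-4 BBX22-GFPox replicate 2, its values with 1 array left out running from -0.072 to 0.49. Of 121 for 10 genes in the test of the difference, 12 lost it. Dim probe sets limit the folds: 21 recurring raised probe sets had a mean cop1-4 signal at or below the offset of 24.5.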

Other observations

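Some recurring raised genes lay in the same stretch of a chromosome, a description made after their values were seen. In 88 successive windows of up to 100 tested genes, 51 windows held 0 of the 68 recurring raised genes, 19 held 1, 10 held 2 and 8 held 3 or more, and these 8 held 29 of them. The window from AT5G44250 to AT5G47190 held 5, among them AT5G45500, AT5G44520 and AT5G45410. The windows from AT1G51200 to AT1G54290, from AT1G63290 to AT1G66450 and from AT2G01060 to AT2G04620 held 4 each. Whether this spread departs from that of other genes was not tested.

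The recurring raised probe sets had a median of their mean signals of 597.3 in cop1-4 BBX22-GFPox, 129.3 in cop1-4 and 374.2 in wild type. For the recurring lowered ones it was 125.8 in cop1-4 BBX22-GFPox, 510.7 in cop1-4 and 222.5 in wild type. The order of both cop1-4 genotypes follows from the choice of the probe sets, in which wild type entered only through the filter. None of these levels was tested.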
